A study of Homo sapiens with 21 samples.

Results

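The MYB transcription factor family has 3 genes in human, MYB, MYBL1 and MYBL2, and on chromosome 6 MYB is flanked by HBS1L and AHI1 and overlapped by the antisense gene MYB-AS1. These 6 genes were picked by name and mapped to Ensembl identifiers, and all 6 were found among the 61541 genes of the gene count table and among the 57300 gene names of the exon bin files. Their levels were followed through all 7 groups of the study, and the place of their counts along each gene was followed in the 12 libraries that were counted by exon bin. An exon bin is one of the non-overlapping pieces into which the exons of a gene are cut by the ends of its transcripts.

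The cells were K562, an established human line from chronic myeloid leukaemia in blast crisis with erythroid features, grown in RPMI medium with 10% fetal bovine serum. Each group held 3 libraries made with a TruSeq kit from 1 µg of total RNA. The groups were 34kn and its control, 34kp and its control, MYB overexpression, NMYB overexpression and empty vector. Per the design text, 34kn and 34kp stand for the overexpression, one at a time, of a pair of enhancer RNAs made from an enhancer 34 kb upstream of MYB. The same text speaks of MYB and of an N-terminally truncated MYB, and the label NMYB is not spelled out further. The sources used here give neither the vectors nor what the 34kn and 34kp control cells received. They also do not say that replicates were separate cultures, so each p-value refers to the spread between these libraries, and that spread may be technical.

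MYB (c-Myb) is a DNA-binding factor that keeps haematopoietic progenitors immature and dividing, and it reads a short motif with the core AACNG. Enhancers that drive MYB in erythroid cells lie between HBS1L and MYB. MYBL2 (B-Myb) is active in dividing cells in general and works with the MuvB complex on genes of mitosis, whereas MYBL1 (A-Myb) is best known from male germ cells. HBS1L is a GTPase that rescues stalled ribosomes with PELO, and AHI1 (jouberin) is a protein of the transition zone at the base of the primary cilium. MYB-AS1 is a long non-coding RNA gene read from the strand opposite to MYB.

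In GRCh38, as annotated by GENCODE 29, MYB (ENSG00000118513) lies at chr6:135181315-135219173 on the plus strand. HBS1L (ENSG00000112339) lies at chr6:134960378-135103056 and AHI1 (ENSG00000135541) at chr6:135283532-135497776, both on the minus strand, so HBS1L and MYB point away from each other. MYB-AS1 (ENSG00000236703) lies inside MYB at chr6:135195083-135195995 on the minus strand. MYBL2 (ENSG00000101057) lies at chr20:43667019-43716496 on the plus strand. The bin files cut MYB into 46 bins, MYBL1 into 29, MYBL2 into 16, HBS1L into 52, AHI1 into 136 and MYB-AS1 into 2.

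The results below turn on the 5′ ends of MYB and MYBL2, so the DNA at these starts is shown first. The 250 bases before the RefSeq start of MYB (RefSeq, GRCh38.p14, chr6:135181058-135181307, plus strand) and a 30-base stretch of MYBL2 (same source, chr20:43667063-43667092, plus strand) share the letters in capitals, TTGGCGGGA, a form of the site recognised by E2F cell-cycle factors. The MYBL2 stretch lies before the RefSeq start but inside the gene as annotated by GENCODE 29, which begins at chr20:43667019.
MYB upstream: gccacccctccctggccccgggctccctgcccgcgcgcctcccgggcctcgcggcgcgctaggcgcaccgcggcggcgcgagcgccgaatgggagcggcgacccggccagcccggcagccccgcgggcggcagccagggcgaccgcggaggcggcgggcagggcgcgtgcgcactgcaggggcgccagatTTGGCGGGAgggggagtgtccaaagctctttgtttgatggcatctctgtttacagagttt
MYBL2 site: gccgacgcgcTTGGCGGGAgatagaaaagt
Searched on both strands over the same 250 bases before a start, TTGGCGGGA was found in 97 of 35116 RefSeq start windows (0.276%). It was found once for MYB and once for MYBL2, and 0 times for HBS1L and AHI1, and these 4 genes were the ones present in the table of start windows. The MYB window held 75.6% G and C. No other form of the E2F site was searched, so the 0 for HBS1L and AHI1 covers these letters alone. A match in letters is a description and does not show that a factor binds.

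The coding part of the first exon is short in both genes. It is shown for MYB at chr6:135181514-135181536 and for MYBL2 at chr20:43667284-43667303, from GENCODE 29 transcripts MYB-205 and MYBL2-201, both on the plus strand, with the start codon in capitals.
MYB first exon, coding part: ATGgcccgaagaccccggcacag
MYBL2 bin 2, coding part: ATGtctcggcggacgcgctg

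The upstream DNA of AHI1 is shown because AHI1 was the member whose level differed in both MYB comparisons. It covers the 214 bases before the GENCODE start (RefSeq, GRCh38.p14, chr6:135497777-135497990, minus strand), with matches to the MYB core AACNG, or CNGTT where the match is on the other strand, in capitals.
AHI1 upstream: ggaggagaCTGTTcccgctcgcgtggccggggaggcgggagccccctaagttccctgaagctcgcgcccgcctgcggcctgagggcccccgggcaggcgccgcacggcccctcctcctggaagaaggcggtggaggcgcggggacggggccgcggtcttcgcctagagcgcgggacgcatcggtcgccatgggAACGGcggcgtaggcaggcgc
AHI1 had 2 matches, MYB had 1 and HBS1L and MYBL2 had 0. The core was found in 24786 of the 35116 windows (70.6%), so its presence sets no gene apart.

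Depth was ample for 4 members and thin for the other two. The libraries held 36563252 to 41243796 bin counts or 16552237 to 24462819 gene counts. Per library, bins of MYB summed to 6262 to 8971, of MYBL2 to 5806 to 8198, of HBS1L to 5188 to 7245 and of AHI1 to 1806 to 2863. MYBL1 gave bin sums of only 6 to 35. The cells carried the erythroid markers of K562, with GATA1 at 206.9 to 261.8 CPM (counts relative to library size, scaled by TMM) and the fetal globin HBG1 at 210.8 to 248.4 CPM in the gene table. The B cell marker MS4A1, the fibroblast marker LUM and the kidney marker PAX2 were at 0 in all 9 libraries of that table, although other genes of the same lists were expressed. KRT8 stood at 441.8 to 807.4 CPM, EPCAM at 54.9 to 65.7, PTPRC at 93.1 to 115.4, CD3D at 11.9 to 31.8 and COL1A2 at 6.69 to 7.98.

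MYBL2 and MYB were the abundant family members in these cells, and MYBL1 was close to the detection limit. Per kilobase of annotated exon, MYBL2 stood at 85.9 CPM in libraries labelled MYB overexpression, 89.5 in libraries labelled NMYB overexpression and 91.7 in empty-vector libraries. MYB followed with 41.3, 38.5 and 39.2 CPM per kilobase in the same order of groups, HBS1L with 12.3, 11.6 and 12.6, and AHI1 with 6.26, 5.73 and 8.08. MYB-AS1 stood at 0.988, 1.10 and 1.30 CPM per kilobase and MYBL1 at 0.161, 0.254 and 0.148. No library of the gene table broke this order between any 2 neighbouring genes. By CPM without regard to length, MYBL2 lay above 98.9% of the genes in the table, MYB above 98.6%, HBS1L above 97.4%, AHI1 above 93.6%, MYBL1 above 79.3% and MYB-AS1 above 75.2%.

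**Figure D1:**
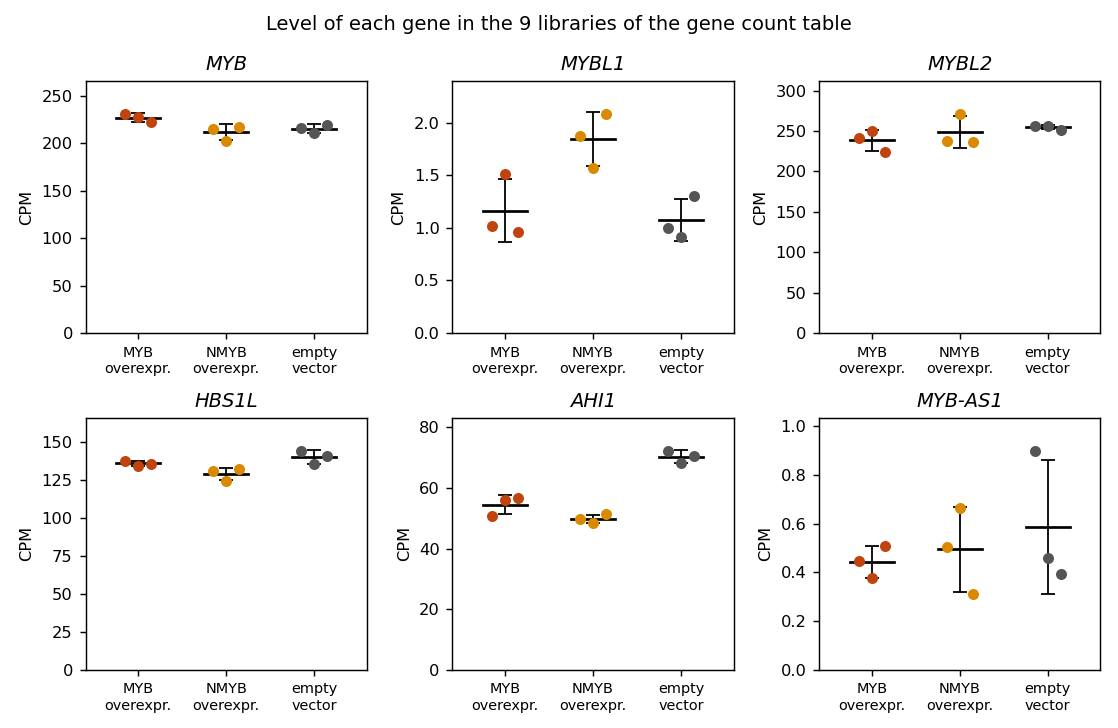
Level of the 6 genes in CPM in the 3 libraries each labelled MYB overexpression, NMYB overexpression and empty vector; points are libraries, the short line is the mean and the bar ± 1 SD. AHI1 sits at 48.5 to 56.8 CPM in both overexpression groups, below 68.2 to 72.3 CPM in empty vector, and MYBL1 is higher in the NMYB group than in both others.

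Counts of the MYB gene itself did not pass the threshold in the libraries labelled MYB overexpression or NMYB overexpression. MYB had 230.8, 228.0 and 221.9 CPM in libraries labelled MYB, 215.3, 201.8 and 217.2 CPM in libraries labelled NMYB and 216.4, 210.3 and 218.9 CPM in empty-vector libraries. All 3 libraries labelled MYB lay above all 3 of empty vector, but by little, while the NMYB and empty-vector values overlapped and 1 NMYB library lay below all others. The log2 fold change of MYB was 0.08 for the MYB label over empty vector (SE 0.0437, edgeR quasi-likelihood F test, Benjamini-Hochberg adjusted p = 0.230), and the 95% interval of this fold spanned 0.990 to 1.12. For the NMYB label it was -0.03 (SE 0.0439, adjusted p = 0.727, edgeR), and NMYB over MYB gave -0.10 (SE 0.0437, adjusted p = 0.229, edgeR). The sources used here do not say whether a transcript from the vector would be counted as MYB, so these counts neither bear out nor contradict the labels.

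AHI1 fell in both overexpression groups. It had 50.8, 55.9 and 56.8 CPM in libraries labelled MYB, 49.8, 48.5 and 51.2 CPM in libraries labelled NMYB and 72.3, 68.2 and 70.6 CPM in empty-vector libraries. The empty-vector libraries were the high ones and no library of either overexpression group reached them. The mean was 54.5 ± 3.25 CPM for MYB, 49.9 ± 1.36 CPM for NMYB and 70.3 ± 2.08 CPM for empty vector (SD, n = 3 each). On the log2 scale the change was -0.37 for MYB over empty vector (SE 0.0564, adjusted p = 9.0e-05, edgeR), a fold of 0.774 with a 95% interval from 0.713 to 0.840. For NMYB over empty vector it was -0.50 (SE 0.0574, adjusted p = 5.1e-06, edgeR), a fold of 0.709 with an interval from 0.652 to 0.771. These comparisons share the empty-vector libraries. Set directly against each other, NMYB over MYB gave -0.13 (SE 0.0577, adjusted p = 0.263, edgeR), a fold of 0.917 with an interval from 0.843 to 0.996, and the groups overlapped by 1 library on each side. With any one library left out, AHI1 stayed past the threshold in both comparisons with empty vector, at -0.40 to -0.32 for MYB and -0.53 to -0.47 for NMYB.

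AHI1 was the 1 member of 6 called in the comparison of MYB with empty vector, where 22.3% of the 15823 genes tested were called and 12.7% were called lower. In the comparison of NMYB with empty vector 2 of 6 members were called, AHI1 and MYBL1, against 24.9% of all genes, 12.4% of them lower and 12.6% higher. In the comparison of NMYB with MYB 0 of 6 members were called by edgeR and 0 by DESeq2, against 1.14% of all genes. There 3 of 6 had an unadjusted p below 0.05, against 17.7% of all genes, a higher share that rests on 6 genes and was not tested. With 6 members, the counts of called members are close to the share called among all genes.

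Some genes of the marker lists were also called in the MYB experiment. Over all genes, 22.3% were called for MYB and 12.7% were called lower, and for NMYB 24.9% and 12.4%. The lists hold few genes, and no list was tested as a set. Of 6 epithelial or kidney markers, 4 were testable, of which 3 fell in the MYB group and 2 in the NMYB group, and the list summed to 825.3 to 894.9 CPM in libraries labelled MYB, 937.6 to 1070.3 CPM in libraries labelled NMYB and 1286.5 to 1342.6 CPM in empty vector. Within this list PAX2 was at 0 and CDH1 at no more than 0.172 CPM in the libraries of this experiment. The others were expressed, KRT8 at 441.8 to 807.4 CPM, KRT18 at 226.3 to 324.5, KRT19 at 102.3 to 150.2 and EPCAM at 54.9 to 65.7. Of the 10 K562 markers, 3 fell and 0 rose in the MYB group, and 1 fell and 1 rose in the NMYB group, with sums of 1748 to 1802, 1765 to 1804 and 2034 to 2050 CPM for MYB, NMYB and empty vector. Lymphoid markers had 1 of 3 testable genes lower in both comparisons and fibroblast markers 1 of 2. Among monocyte markers the only testable one, LYZ, rose in both. The part of these shifts in the AHI1 result was not tested, and in bulk RNA fewer cells of a type and less RNA per cell cannot be told apart.

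MYBL1 (ENSG00000185697, chr8:66562175-66614247, minus strand) rose in libraries labelled NMYB, on few counts. It had 37, 26 and 40 counts (1.87, 1.57 and 2.08 CPM) in libraries labelled NMYB, 25, 32 and 19 counts (1.02, 1.51 and 0.963 CPM) in libraries labelled MYB and 20, 16 and 23 counts (1.00, 0.916 and 1.30 CPM) in empty-vector libraries. The NMYB values did not overlap those of empty vector or of the MYB label, and the MYB and empty-vector values overlapped. The mean was 1.84 ± 0.256 CPM for NMYB and 1.07 ± 0.201 CPM for empty vector (SD, n = 3 each), a log2 fold change of 0.79 (SE 0.246, adjusted p = 0.0247, edgeR) and a fold of 1.73 with a 95% interval from 1.21 to 2.47. The call was lost without empty-vector replicate 1 (adjusted p = 0.0820), empty-vector replicate 2 (0.0828), NMYB replicate 1 (0.0618) or NMYB replicate 3 (0.0879), all by edgeR, and under DESeq2 (adjusted p = 0.109). Over the MYB label the NMYB value was 0.67 (SE 0.234, adjusted p = 0.145, edgeR), and MYB over empty vector was 0.12 (SE 0.261, adjusted p = 0.795, edgeR).

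MYBL2 and HBS1L did not pass the threshold in the MYB experiment. MYBL2 had 241.4, 250.3 and 224.3 CPM in libraries labelled MYB, 237.2, 271.2 and 237.0 CPM in libraries labelled NMYB and 255.7, 256.3 and 251.6 CPM in empty-vector libraries. The libraries labelled MYB all lay below empty vector, by a log2 fold change of -0.09 (SE 0.0535, adjusted p = 0.235, edgeR), and NMYB replicate 2 was the highest of all 9. HBS1L had 137.6, 134.6 and 135.9 CPM for MYB, 130.9, 124.7 and 132.1 CPM for NMYB and 144.5, 135.5 and 140.7 CPM for empty vector. The NMYB values of HBS1L did not overlap empty vector, with a log2 fold change of -0.12 (SE 0.0465, adjusted p = 0.0715, edgeR). That value passed the threshold when no filter on low counts was used (adjusted p = 0.0490, edgeR). MYB over empty vector for HBS1L was -0.04 (SE 0.0462, adjusted p = 0.542, edgeR).

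MYB-AS1 was counted very differently by the gene table and by the bin files. The gene table gave it 11, 8 and 10 counts in libraries labelled MYB, 10, 11 and 6 in libraries labelled NMYB and 18, 8 and 7 in empty vector, with overlapping groups and log2 fold changes of -0.43 for MYB (adjusted p = 0.488, edgeR) and -0.29 for NMYB (adjusted p = 0.654, edgeR). Its bins summed to between 225 and 420 counts per library. Between 93.8% and 100% of that sum fell in bin 2, which lies opposite to an exon of MYB and is shown here for that reason (GENCODE 29 transcript MYB-AS1-201, chr6:135195893-135195995, minus strand).
MYB-AS1 bin 2: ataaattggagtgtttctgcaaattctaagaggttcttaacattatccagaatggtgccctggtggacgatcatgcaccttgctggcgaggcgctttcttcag
Bin 2 held 211 to 413 counts, between 1.21 and 1.55 times the counts of the MYB bins 22 and 23 on the other strand, while bin 1 outside that exon held 0 to 14. The sources used here give no strand setting of the counting, so reads of MYB-AS1 and of MYB cannot be told apart in bin 2, and bin values of MYB-AS1 are uncertain.

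Overexpression of the 34kn enhancer RNA left the summed bins of all 6 genes short of the threshold. MYB had 209.1, 211.3 and 205.2 CPM with 34kn and 162.4, 201.8 and 189.8 CPM in its controls. The 34kn values were close together and lay above every control, with control replicate 1 far below the others. This came to a log2 fold change of 0.17 (SE 0.0761, adjusted p = 0.205, edgeR). HBS1L had 164.1, 167.1 and 174.5 CPM with 34kn and 134.6, 158.3 and 151.3 CPM in controls, again without overlap, at 0.18 (SE 0.0704, adjusted p = 0.157, edgeR). Without control replicate 2 both were called, MYB at 0.24 (adjusted p = 0.0313, edgeR) and HBS1L at 0.23 (adjusted p = 0.0301, edgeR). In that run 2982 of all 16528 genes tested were called. Without control replicate 1 the adjusted p was 0.350 for MYB and 0.218 for HBS1L by edgeR.

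AHI1 had 60.2, 53.1 and 52.9 CPM with 34kn and 46.8, 57.6 and 51.6 CPM in controls, with overlap, and MYBL2 had 186.1, 192.0 and 189.8 CPM with 34kn and 212.6, 188.7 and 204.7 CPM in controls. Their log2 fold changes were 0.08 (SE 0.0917, adjusted p = 0.609, edgeR) for AHI1 and -0.10 (SE 0.0627, adjusted p = 0.352, edgeR) for MYBL2. MYB-AS1 stood at 0.33 (SE 0.150, adjusted p = 0.206, edgeR), in values that cannot be separated from MYB, and MYBL1 was at -0.47 (adjusted p = 0.494, edgeR) on sums of 11 to 25 with 34kn and 22 to 35 in controls. In this comparison 0% of the 16116 genes tested were called by edgeR, although 3759 (23.3%) had an unadjusted p below 0.05 and DESeq2 called 1241 genes. Of the members, 3 had an unadjusted p below 0.05, MYB, HBS1L and MYB-AS1, and DESeq2 called 0.

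With the 34kp enhancer RNA the members were also short of the threshold, and the spread among the 34kp libraries was wide. MYB had 193.4, 214.9 and 230.5 CPM with 34kp and 205.8, 199.2 and 201.8 CPM in controls, so that the 34kp libraries lay on both sides of the controls. The log2 fold change of MYB was 0.07 (SE 0.0788, adjusted p = 0.699, edgeR). HBS1L had 165.2, 168.6 and 188.5 CPM with 34kp and 170.9, 175.5 and 172.0 CPM in controls, a log2 fold change of 0.00 (SE 0.0759, adjusted p = 0.983, edgeR). AHI1 had 50.6, 63.0 and 72.3 CPM with 34kp and 67.9, 58.0 and 57.2 CPM in controls, at 0.02 (SE 0.128, adjusted p = 0.965, edgeR). MYBL2 had 187.7, 176.1 and 152.7 CPM with 34kp and 160.8, 183.6 and 195.9 CPM in controls, at -0.07 (SE 0.0980, adjusted p = 0.755, edgeR). In 34kp replicate 3, MYB, HBS1L and AHI1 were at their highest of the 6 libraries and MYBL2 at its lowest.

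For 34kp, 0 of 6 members were called by edgeR and by DESeq2, 0 had an unadjusted p below 0.05, against 17.9% of all genes, and 2.35% of all 16662 genes tested were called. The effect of 34kn minus the effect of 34kp was tested as an interaction in a fit of all 12 libraries. It was 0.10 for MYB (SE 0.112, adjusted p = 0.619), 0.18 for HBS1L (SE 0.101, adjusted p = 0.300), 0.07 for AHI1 (SE 0.168, adjusted p = 0.837) and -0.03 for MYBL2 (SE 0.119, adjusted p = 0.909), all by edgeR. None of the 6 was called there by edgeR or by DESeq2, and 0 had an unadjusted p below 0.05, against 24.4% of all genes, while 6.36% of all genes were called by edgeR.

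**Figure D2:**
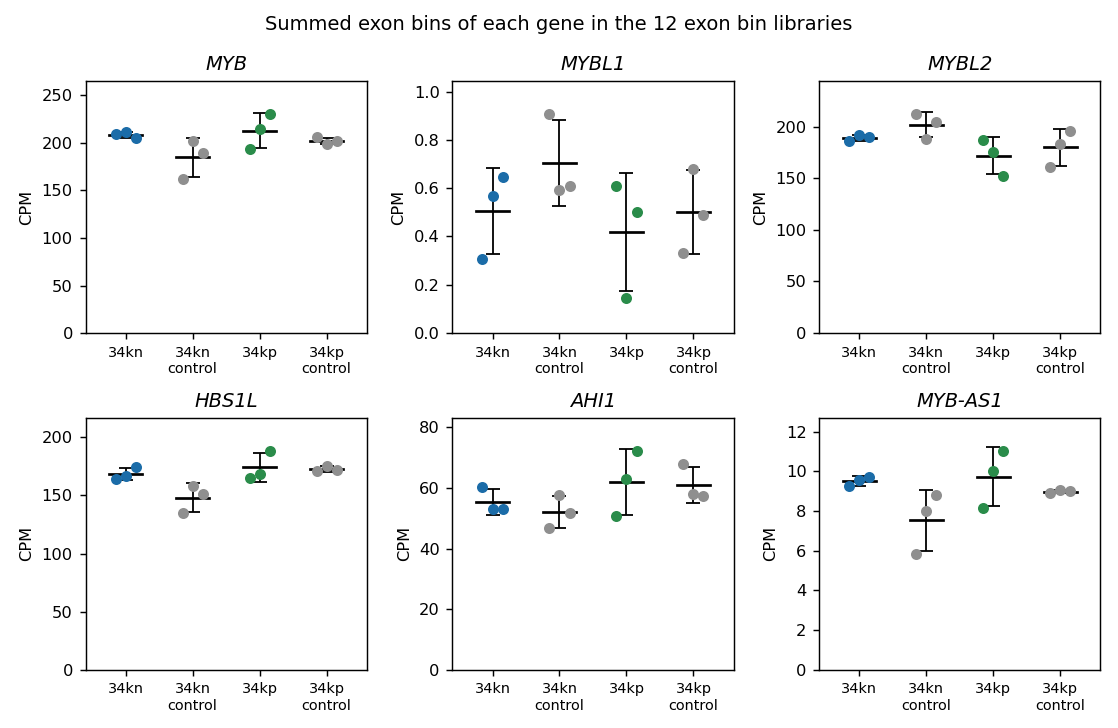
Summed exon bins of the 6 genes in CPM in the 34kn, 34kn control, 34kp and 34kp control libraries (points; line, mean; bar, ± 1 SD; n = 3 each). MYB and HBS1L are higher in all 34kn libraries than in all 34kn controls, where control replicate 1 is the lowest at 162.4 and 134.6 CPM, and 34kp libraries scatter around their controls.

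**Figure D3:**
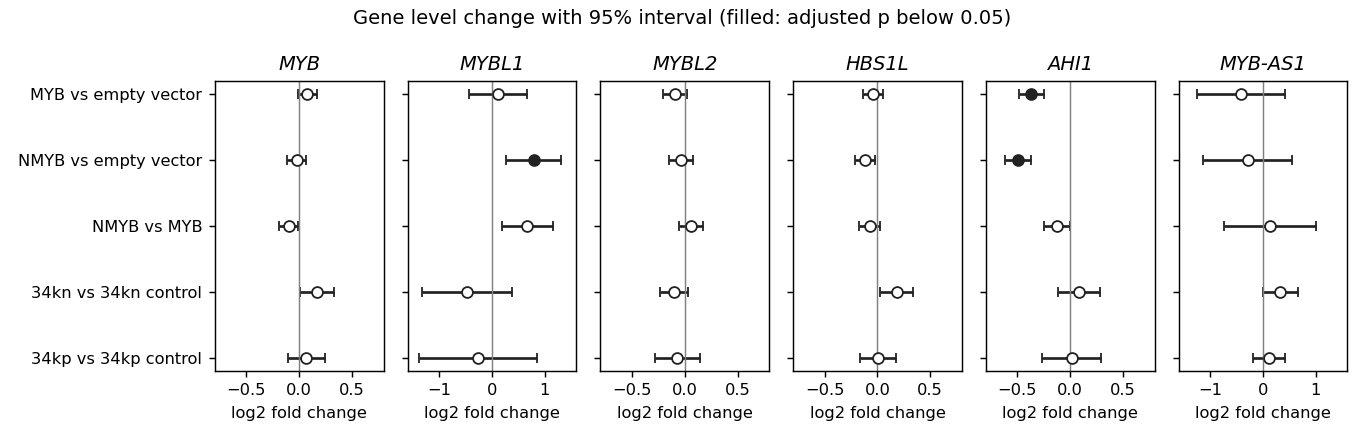
Log2 fold change of each gene with its 95% interval in 5 comparisons, filled where the edgeR adjusted p was below 0.05; MYBL1 and MYB-AS1 have a wider axis. Filled points are AHI1 for MYB over empty vector (-0.37) and NMYB over empty vector (-0.50), and MYBL1 for NMYB over empty vector (0.79).

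Where the counts lay along MYB differed between 34kn and its controls. The first exon, bins 1 to 7, held 10.3%, 11.5% and 10.4% of the MYB bin counts with 34kn and 18.2%, 13.4% and 13.4% in the controls. All 34kn libraries lay below all controls, and control replicate 1 stood well above the other two. The mean share was 10.8 ± 0.666% with 34kn and 15 ± 2.78% in controls (SD, n = 3 each), a difference of -4.24 percentage points (exact two-sided permutation p = 0.1, the smallest that 3 against 3 allows). Without control replicate 1 the difference was -2.64 points, and with any one library left out it ran from -5.05 to -2.64. The exons in the middle of MYB, bins 11 to 37, held a larger share, 67.0 ± 0.787% with 34kn and 62.7 ± 3.79% in controls, also without overlap. That difference was 4.32 points, and 2.15 points without control replicate 1. The last exon held 14.9 ± 0.872% with 34kn and 14.8 ± 0.492% in controls.

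With 34kp the MYB first exon held 12.5%, 8.88% and 6.95% of the counts, against 9.31%, 9.87% and 9.91% in the 34kp controls. The 34kp libraries lay on both sides of their controls, with means of 9.46 ± 2.84% with 34kp and 9.69 ± 0.334% in controls (SD, n = 3 each) and a difference of -0.23 points (exact two-sided permutation p = 0.9). The exact binomial 95% interval of the first exon share in a single library was 0.538 to 0.964 points to either side. It leaves out the spread between libraries and takes each bin count as a separate read. A read can fall in several bins, so the interval may be too narrow even for counting error. The 46 bins of MYB were placed on exons by their order. Bins 8 to 46, 39 in all, were matched to bins built from GENCODE 29, which cuts the gene into 47. Bins 1 to 7 themselves have no match and were taken as the first exon because they precede bin 8. Ahead of the same position GENCODE 29 has 6 bins, all of them within the first exon at chr6:135181315-135181536.

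In the bin test, which compares the log2 fold change of each bin with that of its gene, all 7 bins of the MYB first exon were lower with 34kn but 0 of the 33 tested MYB bins was called. The 7 relative log2 fold changes were -0.39, -0.37, -0.70, -0.57, -0.48, -0.39 and -0.35 from bin 1 to bin 7, and the first bins of the second exon stood at -0.18 (bin 9) and 0.00 (bin 10). The lowest p was that of bin 4, with 125, 164 and 146 counts with 34kn and 213, 186 and 172 counts in controls (relative log2 fold change -0.57, SE 0.173, adjusted p = 0.140, edgeR). Without control replicate 2, bins 3, 4 and 5 of MYB were called, bin 4 at -0.67 (adjusted p = 0.0121, edgeR). In that run 8399 of all 224497 bins tested were called. Without control replicate 1 bin 4 stood at -0.41 (adjusted p = 0.548, edgeR). For MYB as a whole the Simes adjusted p was 0.237. An F test over all its bins, run beside it, gave an adjusted p of 0.0204 by edgeR, which ranged from 6.1e-05 to 0.580 with any one library left out. With 34kp, bins 2 to 7 stood at -0.40, -0.29, -0.03, -0.04, 0.03 and -0.09, and bin 31, at 0.80, had the lowest p of the 34 bins tested (adjusted p = 1, edgeR).

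**Figure D4:**
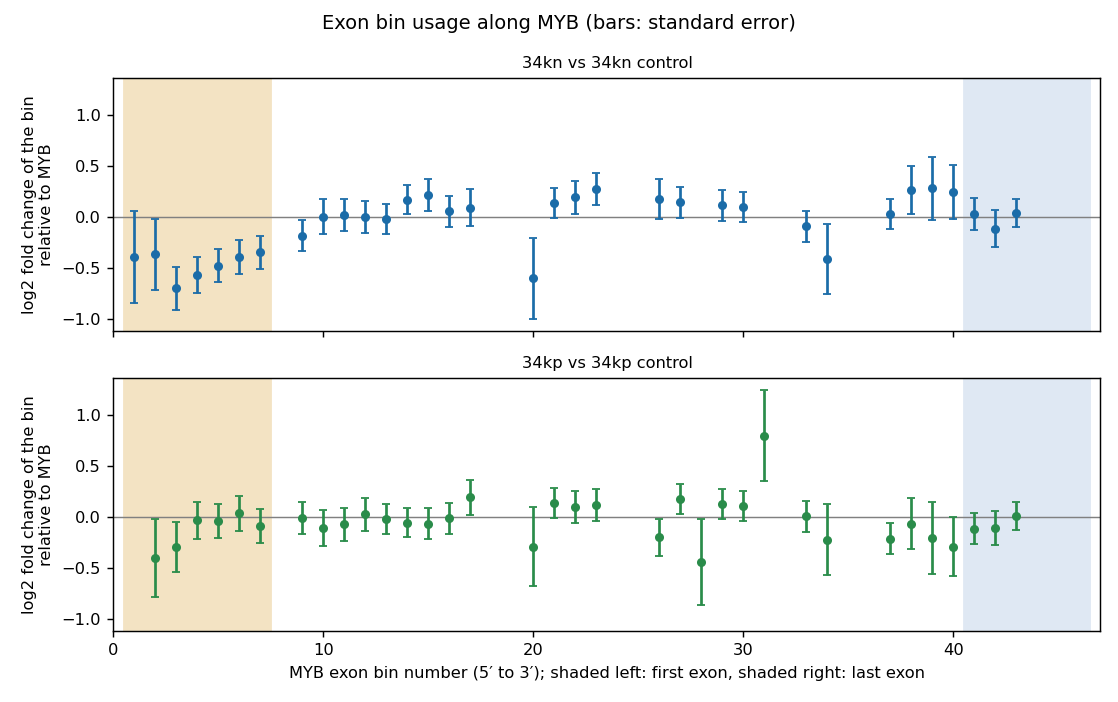
Relative log2 fold change of each tested MYB exon bin (bars, SE), in order from the 5′ end, for 34kn over its control (top) and 34kp over its control (bottom); the shaded bins 1 to 7 are the first exon and bins 41 to 46 the last. In the upper panel the first exon lies below 0 at -0.35 to -0.70. In the lower panel bins 2 and 3 stand at -0.40 and -0.29, and bins 4 to 7 lie within -0.09 and 0.03.

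MYBL2, on another chromosome, showed the same kind of shift with 34kn. Its bins 1 to 6 were all lower relative to the gene, at -0.52, -0.61, -0.47, -0.39, -0.48 and -0.36. Bin 2, which holds the start codon shown above (chr20:43667157-43667303), had 212, 252 and 280 counts with 34kn and 541, 338 and 335 counts in controls. The groups did not overlap, and control replicate 1 was far above the rest. Bin 2 was called at -0.61 (SE 0.165, adjusted p = 0.0477, edgeR). Without control replicate 1 it stood at -0.40 (adjusted p = 0.335, edgeR), and the call held without control replicate 2, the one left-out library that kept it. With 34kp, bin 2 had 496, 375 and 203 counts, against 257, 382 and 385 counts in the 34kp controls, and it was not called. The F test over all MYBL2 bins gave an adjusted p of 0.00070 by edgeR for 34kn (4.1e-08 to 0.147 with any one library left out), and the Simes adjusted p was 0.0666.

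HBS1L had 1 called bin with 34kn, bin 47, a piece of 14 bases on few counts. It lies in the window around the RefSeq start of HBS1L. Bins 48 to 52 lie further 5′ but were not tested, so bin 47 was the tested bin nearest the 5′ end. The neighbouring bins 45 and 46 stood at -0.26 and -1.21 and were not called. Bin 47 (RefSeq, GRCh38.p14, chr6:135054804-135054817, minus strand) is shown because it was called.
HBS1L bin 47: agaggcctgcggga
It had 5, 15 and 15 counts with 34kn and 63, 11 and 18 counts in controls, so the groups overlapped and control replicate 1 alone was high. Relative to the gene it stood at -1.59 on the log2 scale (SE 0.438, adjusted p = 0.0490, edgeR), and without control replicate 1 at -0.47 (adjusted p = 0.966, edgeR). With 34kp the bin had 20, 21 and 10 counts, against 11, 21 and 17 counts in its controls.

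These were the 2 bins called with 34kn among the 138 tested bins of the members, against 0.795% called among all 216197 bins tested and 0.773% called lower. An unadjusted p below 0.05 was found for 22 of the 138, against 8.64% of all bins. By the F test over a gene's bins, MYB and MYBL2 were called of the 5 members with tested bins, against 20% of all genes, and by the Simes method 0 were, against 7.24%. In AHI1 the lowest p was that of bin 124, with 27, 6 and 21 counts with 34kn and 41, 31 and 32 counts in controls (-1.07, SE 0.355, adjusted p = 0.160, edgeR). With 34kp 0 of 148 member bins were called by edgeR, and 0 by limma, against 0.00862% of all bins called by edgeR, and 1 had an unadjusted p below 0.05, against 2.18% of all bins. In the test of 34kn minus 34kp 0 of 154 member bins were called by edgeR and 0 by limma, against 0.31% of all bins called by edgeR, and 7 had an unadjusted p below 0.05, against 6.68% of all bins. There MYB bin 4 stood at -0.53 (adjusted p = 0.762, edgeR) and MYBL2 bin 2 at -0.77 (adjusted p = 0.362, edgeR). MYBL1 had too few counts for any bin to be tested.

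When the bins of each gene were cut into 5 runs of equal bin number from the 5′ end, the first run held less of the gene with 34kn in all 4 well-counted members. In MYB it held 14.9%, 16.8% and 16.4% of the counts with 34kn and 24.5%, 18.6% and 19.2% in controls. In MYBL2 it held 9.62%, 9.57% and 11.3% with 34kn and 17.96%, 11.8% and 13.1% in controls. In HBS1L it held 9.64%, 11.5% and 10.2% with 34kn and 13.6%, 12.2% and 11.6% in controls, and in AHI1 14.8%, 9.18% and 13.7% with 34kn and 18.7%, 16.5% and 17.1% in controls. The 136 bins of AHI1 have no coordinates here, since GENCODE 29 gives 67, so its runs rest on the order of bins in the files and on the annotated strand alone. In all 4 genes the groups did not overlap, as in 1866 of the 8391 genes with enough bins and counts. Control replicate 1 was the highest library in all 4. The differences of the means were -4.75 points for MYB, -4.12 for MYBL2, -2.04 for HBS1L and -4.83 for AHI1 (exact two-sided permutation p = 0.1 for each, the smallest that 3 against 3 allows). Without control replicate 1 they were -2.86 points for MYB, -2.28 for MYBL2, -1.46 for HBS1L and -4.20 for AHI1, and without 34kn replicate 2 the AHI1 value was -3.13.

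Of the 20 shares, 5 runs in 4 genes, 10 did not overlap between 34kn and its controls, against 18.5% of the 41955 shares over all genes. With 34kp 0 of 20 were free of overlap, against 8.9% of all. For first runs alone, 1866 of 8391 genes were free of overlap with 34kn and 686 with 34kp. Those genes had at least 100 counts in every library, and the 4 members at least 1806. The 5 runs of a gene sum to 100%, so their shares depend on each other and the 10 are not separate results. The first runs with 34kp held 14.6% of MYB, 13.05% of MYBL2, 9.22% of HBS1L and 11.2% of AHI1, against 14.9%, 12.6%, 9.58% and 11% in the 34kp controls for the same genes in that order.

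**Figure D5:**
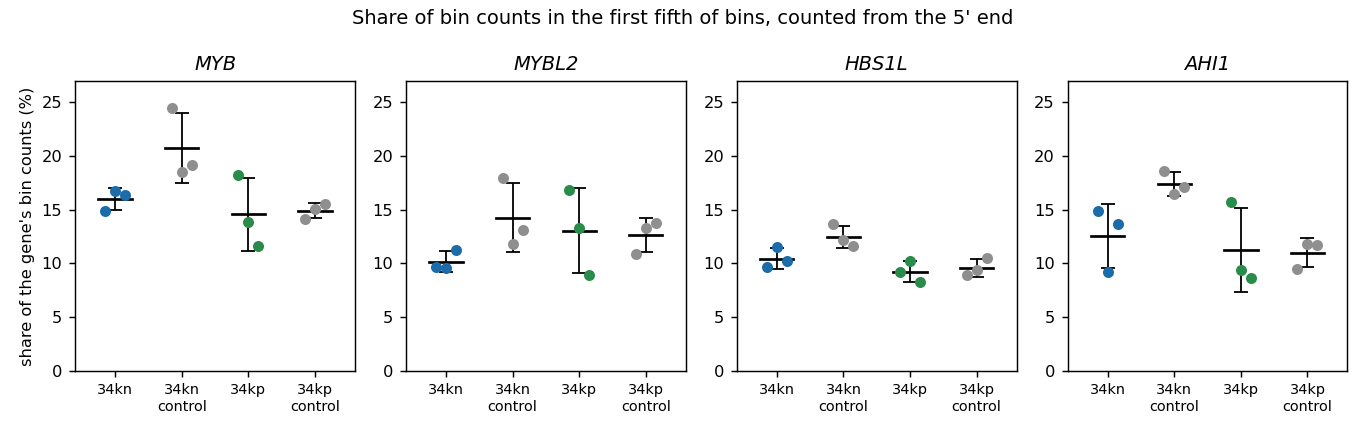
Share of a gene's bin counts, in percent, that lies in the first of 5 equal runs of its bins, for 34kn, 34kn control, 34kp and 34kp control libraries (points; line, mean; bar, ± 1 SD). In all 4 genes the 34kn libraries lie below the 34kn controls, and the 34kp libraries spread around their controls more widely than the controls do themselves in MYB, MYBL2 and AHI1.

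The lower share of the 5′ run with 34kn was found across the transcriptome and not in the members alone. Over 8391 genes with enough bins and counts, the difference had a median of -1.10 points with 34kn and was below 0 in 78.0% of genes. With 34kp the median was 0 points and 47.9% of genes were below 0. In the order of these differences from lowest to highest for 34kn, 7.65% of genes lay below AHI1, whose runs have no coordinates, 8.13% below MYB, 10.99% below MYBL2 and 32.7% below HBS1L. This order is in points and takes no account of the starting share. In the 34kn controls the first run held a mean of 20.8% of MYB, 17.4% of AHI1, 14.3% of MYBL2 and 12.5% of HBS1L. These are above the medians over all genes given next, so the order does not rank proportional change. The median first-run share over all genes was 6.64%, 6.60% and 6.71% in the 34kn libraries and 10.1%, 7.19% and 7.88% in their controls, so control replicate 1 stood apart for all genes as it did for the members.

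The G and C content of the counted sequence moved with these shares. The median log2 level of bins with at least 65% G and C minus that of bins with at most 40% was -0.17, -0.11 and -0.07 in the 34kn libraries and 0.77, 0.12 and 0.32 in their controls. It was 0.30, -0.10 and -0.49 in the 34kp libraries and -0.37, -0.14 and -0.06 in their controls. The libraries with the highest value in each experiment, 34kn control replicate 1 and 34kp replicate 1, were also those with the highest first exon share of MYB. The part of this in the shares and bin tests of MYB, MYBL2, HBS1L and AHI1 was not tested.

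Genes related to the members by function or by place were followed as named lists. Among 12 genes of the MuvB and DREAM complexes, not all of them partners of MYBL2, 2 fell and 0 rose in the MYB group, against 22.3% of all genes called. They were the pocket protein RBL2, at 43.9 CPM in libraries labelled MYB and 55.1 CPM in empty vector (log2 fold change -0.33, adjusted p = 0.0011, edgeR), and the repressor E2F5 (-0.34, adjusted p = 0.0447, edgeR). RBL2 was the 1 gene of this list called in the NMYB group, at -0.34, against 24.9% of all genes. The list median was -0.02 for MYB and -0.04 for NMYB, beside 0.01 over all genes in both.

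Of 20 cofactors and modifiers of MYB, 5 rose and 3 fell in the MYB group, against 22.3% of all genes called, with a list median of 0.05. They included the kinase gene HIPK2, at 97.3 CPM in libraries labelled MYB and 78.9 CPM in empty vector (0.30, adjusted p = 0.000345, edgeR), and SPI1, which encodes the myeloid factor PU.1 (-0.39, adjusted p = 0.0016, edgeR). In the NMYB group 4 rose and 3 fell, against 24.9% of all genes, with a median of -0.02. CEBPB, a partner of MYB on myeloid promoters, stood at 8.92 CPM in libraries labelled NMYB and 4.46 CPM in empty vector (0.99, adjusted p = 0.00011, edgeR). Between NMYB and MYB 3 of the 20 fell and 0 rose, against 1.14% of all genes, among them HIPK1 (-0.25, adjusted p = 0.0184, edgeR) and KMT2A, the MLL histone methyltransferase (-0.21, adjusted p = 0.0338, edgeR). These calls were lost without MYB replicate 1, where 0 of 16143 genes were called in this comparison by edgeR, against 24 to 323 with any other library left out.

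Among 14 factors that bind MYB enhancers in erythroid cells, 5 rose and 3 fell in the MYB group, against 22.3% of all genes, with a list median of 0.07. The bridging protein LMO2 had 66.6 CPM in libraries labelled MYB and 91.8 CPM in empty vector (-0.46, adjusted p = 3.5e-06, edgeR), and the erythroid master factor GATA1 had 209.5 and 255.6 CPM (-0.29, adjusted p = 8.0e-05, edgeR) for MYB and empty vector. In the NMYB group 3 rose and 3 fell, against 24.9% of all genes, with a median of 0.01. The erythroid activator KLF1 had 156.2 CPM in libraries labelled NMYB and 108.8 CPM in empty vector (0.52, adjusted p = 0.00080, edgeR), and RUNX1 rose by 0.31 (adjusted p = 0.00075, edgeR). GATA1 was higher in libraries labelled NMYB than in those labelled MYB (0.18, adjusted p = 0.0474, edgeR), and the Mediator subunit gene MED1 was lower (-0.24, adjusted p = 0.0210, edgeR), and both calls were likewise lost without MYB replicate 1.

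Partners of HBS1L and AHI1 mostly stayed short of the threshold. Of 14 ribosome rescue genes, 2 rose in the MYB group, the release factor genes GSPT2 (0.41, adjusted p = 0.0156, edgeR) and ETF1 (0.13, adjusted p = 0.0439, edgeR), against 22.3% of all genes, with a list median of 0.03. In the NMYB group 2 fell, LTN1 and NEMF of the quality control complex on stalled ribosomes (-0.20 and -0.18, adjusted p = 0.0151 and 0.0362, edgeR), against 24.9% of all genes, with a median of -0.04. Of 17 tested genes of the ciliary transition zone, 2 fell in the MYB group, TMEM231 (-0.34, adjusted p = 0.0190, edgeR) and TMEM107 (-0.32, adjusted p = 0.0491, edgeR), and 1 fell in the NMYB group, CEP290 (-0.26, adjusted p = 0.0148, edgeR). Among all genes 22.3% were called for MYB and 24.9% for NMYB. The medians of this list were -0.10 for MYB and -0.05 for NMYB.

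Of 15 further genes on chromosome 6 around the locus, 9 were tested in the gene table. In the MYB group 2 rose and 2 fell, against 22.3% of all genes, among them the stress kinase gene MAP3K5 (-0.39, adjusted p = 0.000855, edgeR) and the glucose transporter gene SLC2A12 (-1.21, adjusted p = 0.0029, edgeR). The level of SLC2A12 was low, at 0.805 CPM in libraries labelled MYB and 1.89 CPM in empty vector. In the NMYB group 1 rose, MAP7 (0.67, adjusted p = 0.00030, edgeR), and 2 fell, among them MAP3K5 (-0.37, adjusted p = 0.0013, edgeR), against 24.9% of all genes. The list median was -0.08 in both.

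In the 34kn comparison 0 genes of these 6 lists were called by edgeR, as for all genes. In the 34kp comparison 1 was called, the cyclin gene CCND1, at 19.8 CPM with 34kp and 11.9 CPM in its controls (0.73, adjusted p = 0.0104, edgeR), of 18 tested cofactor genes and against 2.35% of all genes. In the test of 34kn minus 34kp, 6 genes of the lists were called, against 6.36% of all genes. By list, 1 of 11 tested MuvB and DREAM genes, 3 of 18 cofactors, 1 of 13 enhancer factors and 1 of 14 transition zone genes were called. Of the 13 ribosome rescue genes and 8 further chromosome 6 genes tested, 0 were called. Among the 6 called were E2F4 (-0.42), CCND1 (-0.97), MEN1 (-0.70), LMO2 (-0.57) and IQCB1 (0.62).

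Over the 21 libraries, with the mean of each experiment taken out, MYB and HBS1L varied together (Pearson r = 0.82 of log2 CPM). The correlation was 0.61 between HBS1L and AHI1, 0.43 between MYB and AHI1, -0.70 between MYB and MYBL2 and -0.43 between MYB and MYBL1. The libraries share their depth, G and C content and group differences, so these values describe the 21 libraries and carry no test. Among 7998 genes with a mean of at least 5 CPM, those most like MYB were CAPRIN1 (0.95), SPPL3 (0.94) and ZFR (0.94), and the most opposite was TSPAN17 (-0.93). HBS1L was most like IGF2BP3 (0.93), CCNL1 (0.92) and XRCC5 (0.91), and AHI1 most like VWDE (0.94), MBOAT2 (0.93) and DOCK11 (0.92). MYBL2 was most like ABCA3 (0.92), HIP1R (0.91) and PYGB (0.91) and most opposite to CBX3 (-0.95). MYBL1, on its few counts, reached only 0.74 with PEX6, RPUSD3 and NAGK.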

How the data were processed

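The authors deposited raw counts: exon bin counts for the 12 libraries of the 34kn and 34kp experiments and a table of gene counts for the 9 libraries of the MYB experiment. Per the submitters' processing notes, the tools were Trimmomatic 0.93, STAR 2.7.10a, HISAT2 2.2.1 and featureCounts 2.0.1, on GRCh38. The sources used here give neither the annotation release nor the strand setting. Summary lines without a bin were not used, among them reads outside bins, 29.5% to 32.8% of all items.

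Here, bins were summed per gene, and levels were computed as CPM with TMM scaling. Changes per gene were tested by edgeR 4.0.16 (R 4.3.3; filterByExpr, minimum count 10; robust quasi-likelihood F test, two-sided; Benjamini-Hochberg adjusted p below 0.05 over all genes), on the 9 libraries together or on the 6 libraries of an enhancer RNA experiment. Bin usage was tested with diffSpliceDGE of edgeR. Shares of 5 runs of bins were compared by exact permutation. Alternatives used DESeq2 1.42.0, limma 3.58.1, RLE scaling, no filter, a replicate block, and each library left out. The scripts were tested on simulated data. The placing of MYB bins on exons and the F test over a gene's bins were added after seeing the files.

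All 6 members were named in every comparison, with their called bins or, failing any, the bin of lowest p. From each list the 2 genes of lowest p were named where called, except 1 that is not reported here. Like genes were the 3 highest and the 1 lowest by r. The members and lists were chosen with earlier results of these data known.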

Additional observations from a re-analysis of the deposited data

How the results depend on the processing

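Of the 6 members, MYB against empty vector called 1 under each alternative run. NMYB against empty vector called 2, against 1 under DESeq2, 3 without a filter and 1 to 2 with a library left out. The 34kn gene comparison called 0, and 0 to 2 with a library left out. The 2 member bins called with 34kn became 0 without a filter, 0 by limma, 0 in the fit on 12 libraries and 0 to 11 with a library left out. The 34kn minus 34kp bin test gave 0 to 2. With 3 runs of bins 4 of 12 shares were apart for 34kn, and for 34kp 0 to 4 of 20 with a library left out. The first exon share of MYB with 34kp ran from -1.78 to 1.02 points. The replicate block called 1 member for MYB, 3 for NMYB (HBS1L at -0.12, adjusted p = 0.0342, edgeR), 0 in the other gene comparisons and 0 member bins with 34kn. Over all experiments, libraries of the same number correlated at -0.61 to 0.41 and of different numbers at -0.43 to 0.63. Both outer values came from 34kp. Within the MYB experiment the ranges were -0.10 to 0.41 for the same number and -0.43 to 0.35 for different numbers. Whether the number marks a pair was not tested.

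Signs turned when a library was left out, in values that were not called, with log2 ranges of -0.0914 to 0.280 for MYBL1 with MYB, -0.0513 to 0.00652 for MYB with NMYB, and -0.0249 to 0.0898 for MYBL2 and -0.124 to 0.382 for MYB-AS1 in NMYB over MYB. With 34kp they were -0.651 to 0.161 for MYBL1, -0.144 to 0.0112 for MYBL2, -0.0534 to 0.0440 for HBS1L, -0.107 to 0.145 for AHI1 and -0.0464 to 0.387 for MYBL2 bin 5. In 34kn minus 34kp they were -0.620 to 0.178 for MYBL1, -0.110 to 0.0451 for MYBL2 and -0.0594 to 0.193 for AHI1.

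Over all genes, calls with 34kn were 0, against 1572 without a filter, 1241 by DESeq2, 447 without control replicate 1 and 2982 without control replicate 2. With 34kp they were 392, against 997, 879, 71 with the block and 817 on 12 libraries. For NMYB over MYB they were 181, against 656, 435 and 1184 with the block, and 0 without MYB replicate 1. For 34kn minus 34kp they were 1102, against 2085, 2011 and 105 with the block. Called bins were 1719 for 34kn, with 255 to 8399 when a library was left out, 730 for 34kn minus 34kp, against 300 by limma and 140 with the block, and 19 for 34kp, against 8 with the block. The causes were not tested. Depth limits MYBL1 and MYB-AS1 most.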
